A study of Homo sapiens with 17 samples.

Results

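BCL11A and 9 genes that lie near it, all on 1 side of it, on the short arm of chromosome 2 were followed in RNA-seq read counts of lymphoma cells. The 10 genes, taken by Ensembl identifier from the 63677 genes of each count table, were a list (BCL11A, PAPOLG, REL, PUS10, PEX13, USP34, XPO1, CCT4, COMMD1 and B3GNT2). The list follows the chromosome but was chosen with earlier results of these data known. It leaves out SANBR, C2orf74, AHSA2P and FAM161A, which lie between its members. All 10 passed the filter on low counts in both comparisons below. Karpas-422 and WSU-DLCL2 are established human cell lines from diffuse large B cell lymphoma, a tumour of mature B cells. The 15 libraries formed 5 groups of 3: untreated Karpas-422, Karpas-422 given A-485 for 48 h, WSU-DLCL2 given A-485 for 48 h, untreated WSU-DLCL2, and 3 clones of WSU-DLCL2 labelled BCL11AKO. A-485 is a catalytic inhibitor of p300 and CBP, enzymes that acetylate histones. The clones carry no stated allele, and the samples include no clone without the edit, so cloning and loss of BCL11A cannot be told apart. The labels name no vehicle for the untreated cells, and they do not say whether replicates were separate cultures, so a p-value here speaks of the spread among libraries, which may be technical.

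BCL11A encodes a zinc-finger transcription factor that recruits corepressors such as the NuRD complex, is needed for early B cell development and silences fetal globin genes in erythroid cells. It is known as an oncogene of B cell malignancies, where the 2p region that holds it and REL is recurrently gained. REL encodes c-Rel, the NF-kB subunit most restricted to lymphoid cells. Histone acetylation by p300 and CBP marks active enhancers, and enhancers can act on several genes of a neighbourhood, which is why genes next to BCL11A are set beside it here.

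The sequence before the transcription start is shown for the genes on which the results turn, from RefSeq on build GRCh38.p14. The count files use GRCh37, so these positions serve the sequence alone. All 10 genes had an entry, with 22 windows of 250 bases in all. Each is printed 5′ to 3′ on the gene's own strand, with matches in capitals to TGACCA (a motif bound by BCL11A), CCAAT (the CCAAT box), GGGCGG (the GC box, bound by SP factors) and the NF-kB consensus of 10 bases, on either strand. For BCL11A (chr2:60553655-60553904, minus strand) and REL (chr2:60881324-60881573, plus strand) the window shown is the one with the most annotated GENCODE starts within 100 bases of its end, 5 of 27 for BCL11A and 2 of 3 for REL. REL and BCL11A were chosen because their reads went opposite ways under A-485.
BCL11A: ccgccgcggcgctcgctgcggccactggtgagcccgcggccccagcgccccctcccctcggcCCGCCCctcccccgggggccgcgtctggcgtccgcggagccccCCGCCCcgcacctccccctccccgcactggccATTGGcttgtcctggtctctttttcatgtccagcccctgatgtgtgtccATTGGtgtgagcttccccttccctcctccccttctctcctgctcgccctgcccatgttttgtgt
REL: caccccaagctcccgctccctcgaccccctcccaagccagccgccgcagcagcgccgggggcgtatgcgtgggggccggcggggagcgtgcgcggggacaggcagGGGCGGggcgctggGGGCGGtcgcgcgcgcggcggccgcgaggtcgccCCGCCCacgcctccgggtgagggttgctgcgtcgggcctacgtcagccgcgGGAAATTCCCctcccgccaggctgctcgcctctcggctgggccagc
The window of REL held 1 match to the NF-kB consensus, the capitals that begin GGAAA near its end, and 3 GC boxes. That NF-kB match occurs in 50 of 34943 windows of the same length (0.143%). The window of BCL11A held 2 CCAAT boxes and 2 GC boxes, motifs found in 32% and 42.5% of all windows. For XPO1 the upstream of its 2 windows (chr2:61538357-61538606, minus strand) is shown, because it is 1 of 2 windows among the 22 with TGACCA, a motif found in 9.2% of all windows. It has 1 of 24 annotated starts nearby, while the XPO1 window not printed has 2 of 24 and none of the 4 motifs. The other window with TGACCA belongs to BCL11A itself (chr2:60528536-60528785, minus strand, not printed), at another start than the window above, with 1 of 27 annotated starts nearby.
XPO1: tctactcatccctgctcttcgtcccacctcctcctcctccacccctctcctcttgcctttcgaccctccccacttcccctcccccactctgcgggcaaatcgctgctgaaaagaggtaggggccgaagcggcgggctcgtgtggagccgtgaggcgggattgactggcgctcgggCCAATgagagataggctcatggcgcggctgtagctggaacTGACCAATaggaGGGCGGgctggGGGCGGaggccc
In XPO1 the TGACCA match shares its last 3 bases with 1 of 2 CCAAT boxes (TGACCAAT), so these are not separate matches. Next come the head-to-head pairs. The stretch upstream of PEX13 (chr2:61017470-61017719, plus strand) also lies between PEX13 and PUS10, which start on opposite strands 288 bases apart at their nearest non-overlapping starts, while CCT4 and COMMD1 start 53 bases apart at theirs. The 68 bases printed for CCT4 and COMMD1 (chr2:61888657-61888724, plus strand) run from the other of 2 CCT4 starts to the same start of COMMD1, and the COMMD1 start with the most annotated starts nearby (4 of 8) is 17017 bases away.
PEX13: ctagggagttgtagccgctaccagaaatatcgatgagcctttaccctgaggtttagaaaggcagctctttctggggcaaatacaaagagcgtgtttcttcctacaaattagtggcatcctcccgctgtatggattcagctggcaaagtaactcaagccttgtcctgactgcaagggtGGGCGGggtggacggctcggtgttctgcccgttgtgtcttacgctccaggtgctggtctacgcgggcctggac
CCT4-COMMD1: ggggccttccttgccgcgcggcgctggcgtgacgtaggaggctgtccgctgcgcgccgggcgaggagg
The stretch between CCT4 and COMMD1 held none of the 4 motifs, and the window of PEX13 held 1 GC box. Other annotated starts of these pairs lie within each other's first part (up to 540 bases for PUS10 and PEX13), and the GENCODE exons of each pair overlap.

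The libraries were of 2 kinds. In the 9 of Karpas-422 and of WSU-DLCL2 with A-485, 6689320 to 8897051 reads were assigned to genes, 43.0% to 55.5% of reads had no unique alignment, and ACTB, a gene every cell uses, stood at 3.20 to 31.9 CPM, the reads of a gene scaled to a common library total. In the 6 of untreated WSU-DLCL2 and the clones, 21233752 to 37286727 reads were assigned to genes, 7.73% to 9.24% had no unique alignment and ACTB stood at 3432 to 9994 CPM. WSU-DLCL2 with A-485 and untreated WSU-DLCL2 thus fell in different kinds, the treatment and the kind of library cannot be told apart, and no comparison between them was made. Untreated WSU-DLCL2 replicate 3 also stood apart: its title says untreated and its treatment entry says A-485, and its counts differed from replicates 1 and 2 by a chi-square of 201 and 212 per gene, against 2.66 between those 2 and 20.3 to 40.9 among the clones. It was grouped by title, and the tests on the 10 genes are also given without this library, as are the order of levels per length and the likeness to BCL11A, 2 checks chosen after the data were seen. The 6 B cell markers were present in every group (summed level 1362 to 6526 CPM), while CD3G and CD3D, T cell markers, were also counted in Karpas-422 (summed T cell level 527 to 674 CPM, with CD2 at 0) and hardly in WSU-DLCL2 (at most 0.328 CPM). The fibroblast marker DCN stood at 381 to 428 CPM in untreated Karpas-422 and at 177 to 193 CPM with A-485. Whether the counts of the 9 libraries measure the messenger RNA of the named genes was not tested.

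Among the 9 libraries of the first kind, BCL11A RNA was highest in untreated Karpas-422, at 147, 134 and 147 CPM in replicates 1 to 3. It stood at 75.1, 76.0 and 74.6 CPM in Karpas-422 with A-485, and at 54.6, 55.04 and 54.1 CPM in WSU-DLCL2 with A-485. These 3 groups, of 1 kind of library, did not overlap. In the other kind, BCL11A stood at 46.8, 45.7 and 73.5 CPM in untreated WSU-DLCL2 and at 58.8, 69.6 and 51.9 CPM in the clones, and these 2 groups overlapped, with replicate 3 the highest of the untreated libraries. Levels per length are RPKM, here CPM divided by the kilobases of all annotated exons. Those exons come to 25422 bases over 27 transcripts for BCL11A and to 2830 bases over 4 for CCT4. The order of genes on this scale therefore also depends on the annotation. BCL11A had a mean level per length of 5.62 ± 0.301 (SD, n = 3) in untreated Karpas-422 and was 6th of the 10 genes. CCT4 (8.47 ± 0.789) stood above it and PAPOLG (4.51 ± 0.260) below it, both without overlap of their libraries. With A-485 BCL11A was 9th, at 2.96 ± 0.0271, within the range of B3GNT2 (3.12 ± 0.373).

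**Figure D1:**
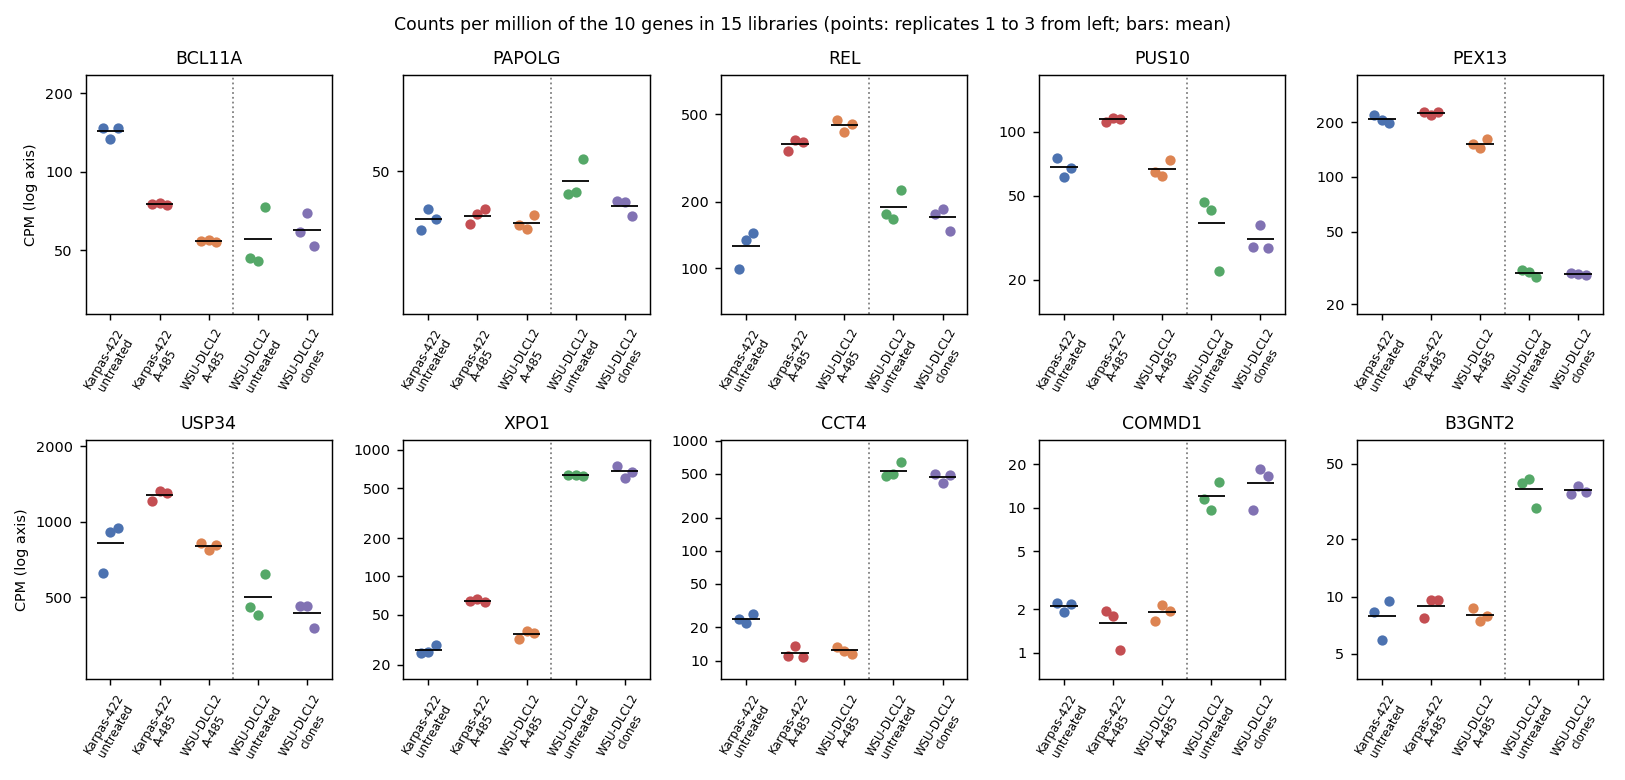
Level of the 10 genes in CPM (y axis, logarithmic, scaled separately for each gene) in the 5 groups (x axis). Points are replicates or clones 1 to 3 from the left, bars are group means, and the dotted line separates the 2 kinds of library. BCL11A falls from 134 to 147 CPM to 74.6 to 76.0 CPM between the Karpas-422 groups, while XPO1 and CCT4 lie far higher in the libraries right of the line.

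The order of the neighbours depended on the kind of library. In the 9 shallower libraries USP34 had the highest level per length (means of 44.2 to 70.5 RPKM) and COMMD1 the lowest (0.665 to 0.875 RPKM). In the 6 deeper libraries CCT4 came first, at 189 ± 31.1 RPKM in untreated WSU-DLCL2 and 165 ± 16.5 RPKM in the clones (SD, n = 3 each), XPO1 second, at 53.9 ± 1.03 and 57.7 ± 6.29 RPKM, and BCL11A last, at 2.18 ± 0.620 and 2.36 ± 0.353 RPKM. Replicates 1 and 2 of the untreated line alone gave CCT4 the 1st place (mean 171 RPKM), XPO1 the 2nd (54.5 RPKM) and BCL11A the 10th (1.82 RPKM) as well. XPO1 ranged from 24.7 to 66.5 CPM in the 9 libraries and from 604 to 751 CPM in the 6. CCT4 ranged from 10.8 to 26.3 CPM against 415 to 637 CPM, and B3GNT2 from 5.89 to 9.55 CPM against 29.4 to 41.7 CPM. PEX13 went the other way, from 143 to 228 CPM in the 9 libraries and 28.3 to 30.6 CPM in the 6. PAPOLG, which encodes a nuclear poly(A) polymerase, was the gene with the most even level, at 36.2 to 53.6 CPM over all 15 libraries. Levels in CPM are therefore compared within a kind of library alone.

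The first comparison asked whether the lower BCL11A RNA of Karpas-422 with A-485 was shared by its neighbours. Of the 9 neighbours 4 fell, 3 rose and 2 were not called, so that with BCL11A 5 of the 10 genes fell (edgeR's quasi-likelihood test, Benjamini-Hochberg adjustment over 11846 genes, threshold 0.05), where 71.4% of all genes tested were called, 37.6% higher and 33.7% lower. The 8 called genes of 10 are near that background. With library sizes in place of TMM scaling 1 neighbour, CCT4, fell and 4 rose. The groups did not overlap for these same 8 genes, against 74.7% of all genes (39.8% higher and 34.9% lower). The median log2 fold change of the 10 genes was −0.25, and that of all genes tested 0.08. Values in this comparison are CPM with TMM scaling, which sets the libraries to a common middle of their genes.

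Of the 2 transcription factor genes, BCL11A stood at 64.9, 66.3 and 64.8 CPM with A-485 and at 162, 159 and 173 CPM without. All 3 treated libraries lay far below all untreated ones. The log2 fold change was −1.33 ± 0.06 (SE; adjusted p = 1.65e-10 in edgeR), a 2.52-fold fall. REL stood at 294, 333 and 324 CPM with A-485 against 110, 160 and 169 CPM, with the first untreated library the lowest and no overlap. It rose 2.17-fold, by 1.12 ± 0.15 (adjusted p = 0.000506 in edgeR). REL thus went opposite to BCL11A. Of the exonic bases of REL, 43.3% are shared with an overlapping non-coding gene on the same strand (AC010733.2), whose reads cannot be told apart there.

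XPO1 encodes exportin 1, which carries proteins with a leucine-rich export signal out of the nucleus. It stood at 55.6, 58.0 and 54.4 CPM with A-485 and at 27.2, 30.1 and 33.8 CPM without, again with no overlap. Its rise was 1.85-fold, at 0.89 ± 0.09 (adjusted p = 1.13e-06 in edgeR). PUS10, which encodes a pseudouridine synthase that modifies transfer RNA, stood at 96.7, 102 and 100.2 CPM against 82.7, 72.4 and 79.3 CPM. It rose by 0.35 ± 0.07 (adjusted p = 0.000354 in edgeR), the smallest of the 3 rises.

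CCT4 was the neighbour that fell most. It encodes a subunit of the chaperonin TRiC, which folds actin and tubulin, and stood at 9.43, 11.8 and 9.41 CPM with A-485 against 26.1, 25.9 and 30.9 CPM without. The libraries of the 2 groups lay far apart. The fall was 2.69-fold, at −1.43 ± 0.13 (adjusted p = 3.83e-07 in edgeR). CCT4 has 2 annotated pseudogenes by name. Reads that align to both the gene and a pseudogene could be set aside as having no unique alignment and be missing from its count.

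The other 3 falls were smaller or rested on few reads. PAPOLG stood at 32.3, 34.3 and 35.2 CPM against 39.8, 48.0 and 44.9 CPM, a difference of −0.38 ± 0.09 (adjusted p = 0.00251 in edgeR). PEX13, which encodes a membrane protein of the peroxisomal import machinery, stood at 197, 189 and 198 CPM against 240, 242 and 232 CPM, a difference of −0.29 ± 0.05 (adjusted p = 0.000133 in edgeR). Neither gene's groups overlapped. COMMD1, which encodes a subunit of the Commander complex for endosomal recycling and promotes turnover of NF-kB subunits, had 15, 16 and 9 reads with A-485 and 18, 15 and 15 without. Scaled, these were 1.66, 1.57 and 0.910 CPM against 2.42, 2.27 and 2.53 CPM, a difference of −0.80 ± 0.30 (adjusted p = 0.0275 in edgeR). The call on COMMD1 was lost without A-485 replicate 3 (−0.57, adjusted p = 0.118 in edgeR), without untreated replicate 1 (adjusted p = 0.0536) and without untreated replicate 3 (adjusted p = 0.0634), and in DESeq2 (adjusted p = 0.124). Other annotated genes overlap 38.5% of the exonic bases of COMMD1.

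USP34 and B3GNT2 were not called. USP34, a deubiquitinase with a role in Wnt signalling, stood at 1041, 1155 and 1132 CPM with A-485 and at 689, 1076 and 1107 CPM without, so that the groups overlapped and the first untreated library lay far below the others. Its difference was 0.21 ± 0.19 (95% interval −0.27 to 0.70; adjusted p = 0.360 in edgeR). B3GNT2, which extends poly-N-acetyllactosamine chains on glycoproteins, stood at 6.66, 8.33 and 8.29 CPM against 9.14, 6.96 and 11.1 CPM. Its difference was −0.21 ± 0.19 (95% interval −0.61 to 0.18; adjusted p = 0.312 in edgeR).

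**Figure D2:**
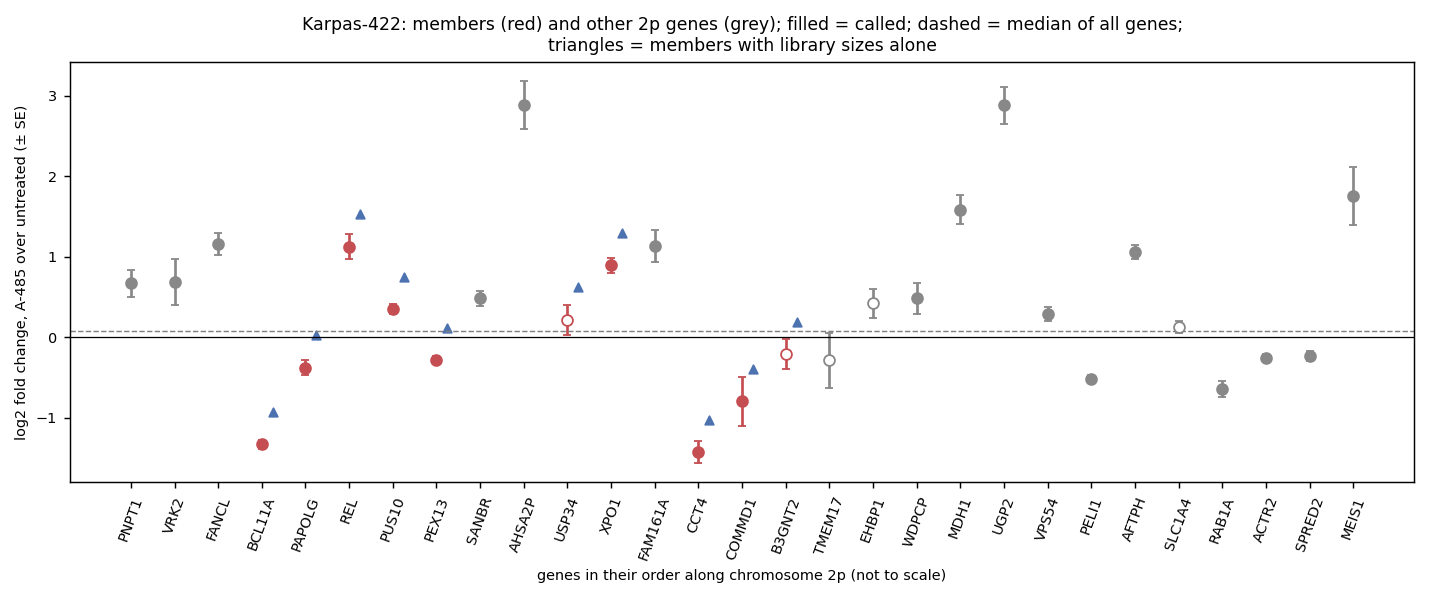
Log2 fold change of Karpas-422 with A-485 over untreated (y axis, ± SE) for the 10 genes (red) and other 2p genes (grey) in their order along the chromosome (x axis, not to scale). Filled points are called in edgeR, the dashed line is the median of all genes, and triangles give the 10 genes with library sizes in place of TMM scaling. BCL11A and CCT4 lie lowest, at −1.33 and −1.43, with REL (1.12), PUS10 (0.35) and XPO1 (0.89) above 0 between them.

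Scaling decided the direction of the small differences. With library sizes in place of TMM, all genes' median moved up by 0.40, BCL11A stood at −0.93 and CCT4 at −1.02, and both were still called, as the only falls (2 in place of 5). PAPOLG (0.03, adjusted p = 0.794 in edgeR), PEX13 (0.12, adjusted p = 0.0517) and B3GNT2 (0.19, adjusted p = 0.386) turned their sign without a call. COMMD1 stood at −0.40 (adjusted p = 0.247) and USP34 at 0.63 (adjusted p = 0.0228), and REL, XPO1 and PUS10 stood higher, at 1.53, 1.30 and 0.75. Over the 12 alternatives run, BCL11A ranged from −1.38 to −0.93, CCT4 from −1.55 to −1.02, REL from 0.95 to 1.53, XPO1 from 0.81 to 1.30 and PUS10 from 0.29 to 0.75, each called in all 12.

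The ratio of BCL11A reads to those of a neighbour within a library needs no scaling. BCL11A reads per REL read, on the log2 scale, ranged from −0.01 to 0.56 in untreated Karpas-422 and from −2.33 to −2.18 with A-485, a mean shift of −2.47. The shift was −2.22 against XPO1, −1.68 against PUS10, −1.57 against USP34, −1.12 against B3GNT2, −1.04 against PEX13 and −0.95 against PAPOLG. For these 7 neighbours the groups did not overlap, and each exact two-sided permutation test gave p = 0.1, the smallest that 3 against 3 libraries allow (0.129 after Benjamini-Hochberg adjustment over 9 ratios), so no ratio could pass 0.05. BCL11A thus lost reads relative to these 7. Only 6.26% of all genes tested had a lower log2 fold change than BCL11A, so such a loss is not particular to its neighbours. The share of all genes without overlap of such a ratio was not counted. Against CCT4 the shift was 0.11 (2.58 ± 0.08 untreated, 2.68 ± 0.17 with A-485, SD, n = 3 each, exact permutation p = 0.3) and against COMMD1 −0.49 (exact permutation p = 0.3), and both overlapped.

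**Figure D3:**
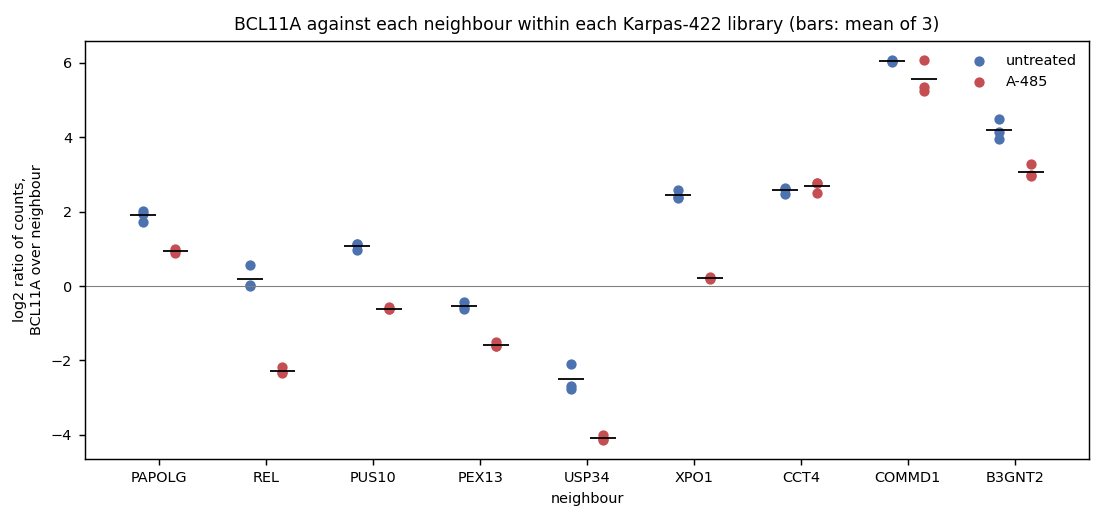
Log2 ratio of BCL11A reads to the reads of each neighbour (y axis) in each Karpas-422 library, by neighbour (x axis), with bars for the mean of 3. The ratio is lower with A-485 (red) than without (blue) in every library for 7 neighbours, while CCT4 and COMMD1 overlap.

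Properties of the libraries moved with the treatment in Karpas-422. Reads with no unique alignment made up 48.8% to 49.0% with A-485 and 54.5% to 55.5% without, and reads outside genes 8.25% to 8.91% and 3.61% to 4.54%. The summed T cell markers fell with A-485, from 633 to 674 CPM to 527 to 562 CPM without TMM scaling, while the summed B cell markers were 2265 to 2553 CPM untreated and 2742 to 3129 CPM with A-485. The median log2 fold change also rose with the number of annotated transcripts of a gene, from −0.13 for 4291 genes with 1 to 4 transcripts and −0.07 for 2837 genes with 5 to 8, to 0.32 for 3633 genes with 9 to 20 and 0.66 for 737 genes with more than 20. BCL11A (27 transcripts) fell in the class whose median was highest, as did XPO1 (24) and USP34 (22), while CCT4 (4), REL (3) and B3GNT2 (2) belong to the lowest class and PAPOLG, PUS10, PEX13 and COMMD1 to the next. The part of these properties in the results was not tested. In bulk RNA, fewer cells of a type and less RNA per cell cannot be told apart.

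Of 23 other 2p genes matched, 19 were tested, of which 12 rose, 4 fell and 3 were not called, beside 37.6% higher and 33.7% lower over all genes, with a median of 0.48 (all genes 0.08). With library sizes alone 16 of them rose and 2 fell. The largest differences were those of AHSA2P (2.88 ± 0.30), UGP2 (2.88 ± 0.23) and MEIS1 (1.75 ± 0.36). AHSA2P is a pseudogene whose exons overlap those of USP34 by 18.0% of the exonic bases of USP34. It lies between members of the list, as do SANBR (0.48 ± 0.09) and FAM161A (1.13 ± 0.20), which also rose. C2orf74, another such gene, was not tested. SANBR and FAM161A were named for their place after their values were seen. UGP2, which makes UDP-glucose, stood at only 2.31 CPM untreated. MEIS1, a homeobox gene, stood at only 0.600 CPM untreated and 2.05 CPM with A-485. On the far side of BCL11A, FANCL (1.16 ± 0.14), a ubiquitin ligase of DNA crosslink repair, and VRK2 (0.68 ± 0.28), a kinase, were higher with A-485, and VRK2 overlapped between the groups. These 2 were named after their values were seen, as the nearest tested genes on that side.

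The functional relatives of the 10 genes were described from lists chosen by function, each to be read beside the 71.4% of all genes called, 37.6% higher and 33.7% lower. Of 16 tested partners of BCL11A 5 rose and 10 fell (median −0.51), and with library sizes alone 5 rose and 5 fell (median −0.10). Among them were the NuRD subunits HDAC1 (2.004 ± 0.16) and RBBP7 (1.73 ± 0.13), which rose, and MBD2 (−1.63 ± 0.05), which fell. Of 7 other chaperonin subunits, which work in a ring with CCT4, 4 rose and 1 fell (median 0.57), led by CCT8 (1.82 ± 0.18), CCT5 (0.81 ± 0.16) and CCT6A (0.80 ± 0.12), so these 3 went opposite to CCT4. CCT8 stood at only 3.20 CPM untreated. The 1 that fell, as CCT4 did, was CCT7 (−0.57 ± 0.12), and with library sizes alone 5 of the 7 rose and 0 fell. Only 4 of 10 relatives of REL were tested, where RELA rose by 0.84 ± 0.20 and the inhibitor gene NFKBIE fell by 0.40 ± 0.10 under TMM scaling and stood at 0.01 with library sizes alone. Among 12 nuclear transport genes beside XPO1, 4 rose and 5 fell (median −0.22). XPO7 stood at 2.09 ± 0.28, from only 0.898 CPM untreated. The transfer RNA exporter XPOT stood at −1.42 ± 0.05, and RCC1, the exchange factor of Ran, at −1.59 ± 0.21. Of 10 relatives of PUS10 8 fell and 1 rose (median −0.98), and with library sizes alone, a count added after the data were seen, 6 fell and 1 rose (median −0.57). They were led by PUS7 (−2.17 ± 0.07), DKC1 (−1.93 ± 0.05), the pseudouridine synthase of box H/ACA particles, and RPUSD2 (−1.63 ± 0.12), while PUS10 itself rose.

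The remaining lists were mixed. Of 12 tested peroxins 2 rose and 6 fell (median −0.36), and 2 and 2 with library sizes alone (median 0.05). PEX19, which binds new peroxisomal membrane proteins, stood at 1.22 ± 0.30, from only 1.42 CPM untreated. Of 10 Commander genes 3 rose, COMMD3 (2.75 ± 0.24), CCDC93 (0.97 ± 0.19) and COMMD4 (0.76 ± 0.17), and 3 fell (median −0.03). COMMD3 stood at only 1.34 CPM untreated. Of 4 poly(A) polymerases the main nuclear enzyme PAPOLA (−0.70 ± 0.05) and the mitochondrial MTPAP (−1.01 ± 0.15) fell and TENT2 (0.60 ± 0.15) rose. Of 11 deubiquitinases 5 rose and 3 fell (median 0.09), with USP47 at 3.15 ± 0.16, USP14, which acts on the proteasome, at −0.71 ± 0.06, and USP8 at 0.65 ± 0.16. Of 4 tested relatives of B3GNT2, B3GNT5, which starts lacto-series glycolipids, fell by 2.05 ± 0.26, and the other 3 were not called. No globin gene passed the filter (0 of 8).

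The second comparison set the 3 clones labelled BCL11AKO against untreated WSU-DLCL2. None of the 10 genes was called (0 of 10 in edgeR), nor was any of 16152 genes (0%), of which 1117 had an unadjusted p under 0.05, while DESeq2 called 315 genes and limma-voom 2, and 0 of the 10 in either. BCL11A, the labelled target, stood, with TMM scaling, at 58.9, 68.3 and 53.0 CPM in the respective clones 1 to 3, against 46.9, 46.2 and 72.2 CPM in replicates 1 to 3 of the untreated line. The clones lay between the untreated libraries, above replicates 1 and 2 and below replicate 3. The difference was 0.13 ± 0.21 (95% interval −0.39 to 0.64; adjusted p = 0.915 in edgeR). RNA levels of an edited gene need not fall, and the sources used here do not say how the gene was edited, so the level checks no label.

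Of the neighbours, PAPOLG was the 1 gene whose groups did not overlap, against 16.5% of all genes (7.96% higher and 8.51% lower). It had 42.6, 41.2 and 39.8 CPM in the clones and 44.2, 45.0 and 52.7 CPM untreated, a difference of −0.20 ± 0.12 (adjusted p = 0.838 in edgeR). PUS10 varied most among the untreated libraries, with 28.7, 35.7 and 29.01 CPM in the clones and 46.6, 43.3 and 21.7 CPM untreated. The clones lay below replicates 1 and 2 and above replicate 3, and the difference was −0.26 ± 0.29 (adjusted p = 0.892 in edgeR). COMMD1 stood at 9.63, 18.1 and 17.0 CPM in the clones, with clone 1 the lowest of all 6 libraries, and 11.6, 9.85 and 14.8 CPM untreated, a difference of 0.30 ± 0.29 (adjusted p = 0.878 in edgeR).

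The other 6 neighbours differed by at most 0.20 on the log2 scale. REL had 177, 183 and 151 CPM in the clones and 176, 170 and 222 CPM untreated (−0.15 ± 0.15), and USP34 at 465, 455 and 386 against 458, 430 and 609 CPM (−0.20 ± 0.17), both with replicate 3 highest. CCT4 stood at 504, 407 and 496 CPM against 478, 499 and 626 CPM (−0.19 ± 0.15). XPO1 stood at 752, 592 and 686 CPM against 639, 646 and 606 CPM (0.10 ± 0.12), where the clones lay on both sides of the untreated libraries. PEX13 was the most even, at 28.8 to 29.7 CPM in the clones and 27.8 to 30.7 CPM untreated (−0.02 ± 0.12), and B3GNT2 differed by −0.03 ± 0.17. For all 10 genes replicate 3 was either the highest untreated library (BCL11A, PAPOLG, REL, USP34, CCT4 and COMMD1) or the lowest (PUS10, PEX13, XPO1 and B3GNT2).

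Without replicate 3, 351 of 16607 genes were called (2.11%) and still 0 of the 10. BCL11A stood higher in the clones by 0.37 ± 0.12 (adjusted p = 0.177 in edgeR) and PUS10 lower by 0.53 ± 0.12 (−0.53, adjusted p = 0.0961). The remaining libraries did not overlap for either gene, nor for PAPOLG, PEX13 and B3GNT2. The share of all genes without overlap in this setting was not counted. COMMD1 differed by 0.48 ± 0.28 (adjusted p = 0.419), B3GNT2 by −0.17 ± 0.08 (adjusted p = 0.321) and PAPOLG by −0.11 ± 0.08 (adjusted p = 0.469). The other 5 lay between −0.06 and 0.08. None of the related lists held a called gene with replicate 3 (0 each). Their medians lay between −0.83 for the 10 relatives of REL and 0.10 for the nuclear transport genes, beside −0.01 for all genes. Without replicate 3, a look added after the data were seen, the median of the relatives of REL was −1.11 and 4 of those 10 were called lower, NFKB1 (−0.56, adjusted p = 0.0232 in edgeR) and NFKB2 (−1.47, adjusted p = 0.0188), which encode NF-kB subunits, and the IkB family genes NFKBIA (−1.20, adjusted p = 0.00548) and NFKBID (−1.04, adjusted p = 0.0339). In the other lists COMMD7 was called higher (0.96, adjusted p = 0.0165) and B3GNT7 lower (−0.79, adjusted p = 0.0467).

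Each clone was also set against the untreated libraries on its own, where a single clone is assumed to vary as the untreated libraries do. Against all 3 untreated libraries, 0 of the 10 genes and 0% of all genes were called for each clone in edgeR, with 527, 470 and 648 genes at an unadjusted p under 0.05. BCL11A differed by 0.10 ± 0.36, 0.31 ± 0.35 and −0.06 ± 0.36 in clones 1, 2 and 3. Without replicate 3 the spread came from replicates 1 and 2 alone, 2 libraries that differed little, and 40.5%, 33.1% and 46.4% of all genes were called in clones 1, 2 and 3, as were 4, 5 and 7 of the 10 genes. Read against those shares, the counts of members called are of the order of the background, and a spread from 2 libraries does not carry the variation between clones.

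Under that setting BCL11A was higher in each clone, by 0.34 ± 0.06, 0.55 ± 0.06 and 0.19 ± 0.06 (adjusted p = 1.99e-06, 7.30e-14 and 0.00799 in edgeR). PUS10 was lower in each, at −0.64 ± 0.08, −0.33 ± 0.07 and −0.63 ± 0.07. BCL11A and PUS10 were thus called the same way in all 3 clones. All 3 were set against the same 2 untreated libraries, and the share of all genes called the same way was not counted. COMMD1 was higher in clones 2 and 3, by 0.76 ± 0.10 and 0.67 ± 0.10, and not called in clone 1 (−0.15 ± 0.12). XPO1 was higher in clone 1 (0.23 ± 0.04), lower in clone 2 (−0.12 ± 0.04) and not called in clone 3 (0.10 ± 0.04), so the clones went different ways. CCT4 was lower in clone 2 alone (−0.26 ± 0.05), and REL (−0.19 ± 0.05), USP34 (−0.20 ± 0.05) and PAPOLG (−0.16 ± 0.07) in clone 3 alone. B3GNT2 was lower in clones 1 and 3 (−0.22 ± 0.07 and −0.17 ± 0.07), and PEX13 was called in none.

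**Figure D4:**
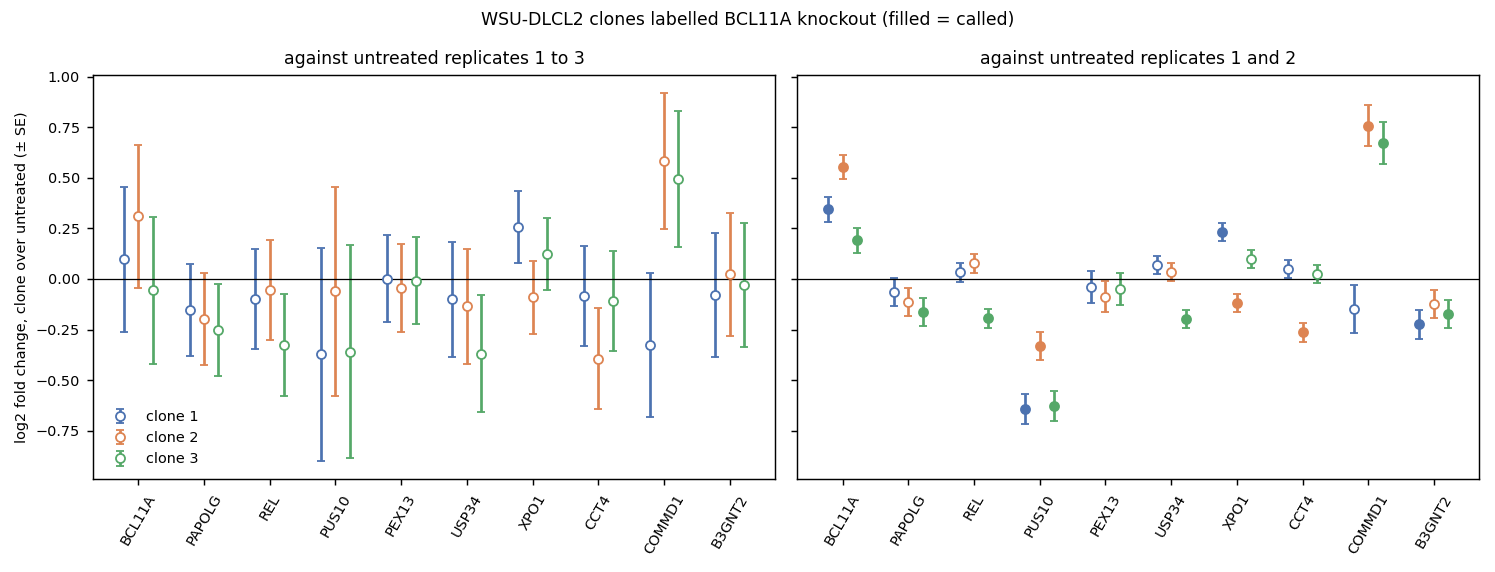
Log2 fold change of each clone over untreated WSU-DLCL2 (y axis, ± SE) for the 10 genes (x axis), against untreated replicates 1 to 3 (left) and 1 and 2 (right). Filled points are called in edgeR. No point is filled on the left, and BCL11A (0.19 to 0.55) and PUS10 (−0.64 to −0.33) are filled for all 3 clones on the right. There the standard errors of all clones come from the same 2 libraries, and the share of all genes filled for all 3 was not counted.

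The genes whose level followed that of BCL11A most closely were sought among 5060 genes with a mean of at least 10 CPM in both kinds of library, by the smaller of 2 Pearson correlations of log2(CPM + 1), over the 9 and over the 6 libraries. They were KDM4B (0.963 and 0.994), a histone demethylase gene, QRSL1 (0.930 and 0.939), SARM1 (0.934 and 0.893), AP5M1 (0.904 and 0.890) and EAPP (0.878 and 0.927). Libraries of 1 group share their treatment, line and depth, so these values are descriptions of 5 groups rather than of independent samples. KDM4B stood at 61.6 ± 2.49 CPM in untreated Karpas-422, 30.9 ± 0.718 with A-485 and 28.6 ± 3.02 in WSU-DLCL2 with A-485 (SD, n = 3 each), the order that BCL11A showed, though the last 2 groups overlapped. Without untreated WSU-DLCL2 replicate 3, the correlation over the remaining 5 libraries was 0.9997 for KDM4B, 0.929 for QRSL1, 0.840 for SARM1, 0.874 for AP5M1 and 0.935 for EAPP. The genes had been chosen on libraries that include these 5, and the ranking was not repeated, so high values are built in. Of the neighbours ranked, CCT4 was the most like BCL11A (0.902 over the 9 libraries and 0.282 over the 6, place 645), and REL was among the least (−0.968 and 0.730, place 4856). Over the 5 libraries CCT4 stood at −0.699 and REL at 0.478, so the sign for CCT4 rested on that replicate.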

How the data were processed

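RNA of 15 libraries was sequenced. The authors deposited a table of read counts for each library. STAR 2.5.3a, RSEM and GRCh37 (hg19) are named in the submitters' processing notes, while the sources used here give no annotation, counting program or strand. The deposited counts are whole numbers and were used as raw counts. The summary lines of each file (27.3% to 70.2% of reads) stayed out of library sizes and tests. Replicate 3 of untreated WSU-DLCL2 has 3 sequencing runs in the labels that share 1 file and were used as 1 library. No pair of replicates was merged (lowest chi-square per gene 1.20). Symbols, transcript numbers and exonic lengths came by identifier from a name table and GENCODE 29 on GRCh38, so no gene coordinates are given.

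The groups compared were fitted with edgeR (version 4.0.16, R version 4.3.3), using TMM factors, filterByExpr, robust quasi-likelihood fits, two-sided tests and Benjamini-Hochberg adjustment over all genes kept, with a threshold of 0.05. A standard error is the log2 fold change over the root of its F statistic. The script was tested on simulated data. The within-library ratio added 0.5 to each count. Alternatives were library sizes alone, RLE size factors, no filter, DESeq2 1.42.0, limma-voom (limma 3.58.1), the replicate number as a block, and leaving out each library.

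The 10 genes and 16 further lists (165 genes, 163 matched) were chosen with earlier results of these data known. Named genes are all 10 members, up to 3 called genes of each list with the largest change, and the 5 genes most like BCL11A; some genes that this rule names are not reported here. Counts are of reads, not molecules. Windows of 250 bases before RefSeq starts were searched for 4 motifs. In the 4 lists of cell type markers in Karpas-422, MS4A1 and CD22 fell by 0.55 and 2.91 among the 6 B cell markers. Of the other B cell markers 1 rose and 3 were not called. CD3D and CD3G fell by 1.02 and 0.65 among T cell markers, CD33 rose by 0.96 among myeloid markers, and DCN fell by 1.50 among epithelial and fibroblast markers. None was called in the clones (0).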

Additional observations from a re-analysis of the deposited data

How the results depend on the processing

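In Karpas-422 the number of the 10 genes called stayed between 6 and 8 over 12 alternatives, and with library sizes alone 2 in place of 5 were lower and 4 in place of 3 higher. That scaling also turned PAPOLG (0.028), PEX13 (0.12), B3GNT2 (0.19) and NFKBIE (0.0069), none of them called. Leaving out 1 library at a time gave 7 or 8 calls. In the clones 0 of the 10 were called in each of 12 alternatives. There, leaving out libraries turned 2 values near 0, as PEX13 ranged from −0.060 to 0.011 and B3GNT2 from −0.17 to 0.086.

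For single clones, leaving out untreated replicate 3 gave 4, 5 and 7 calls (16 in all) in place of 0. Leaving out untreated replicates 1, 2 and 3 in turn changed the sign of these values. For clone 1, BCL11A ranged from −0.0063 to 0.34, REL from −0.15 to 0.033, PEX13 from −0.041 to 0.035, USP34 from −0.18 to 0.070, CCT4 from −0.16 to 0.047 and B3GNT2 from −0.22 to 0.040. For clone 2, REL ranged from −0.12 to 0.078, PUS10 from −0.33 to 0.13, USP34 from −0.22 to 0.036 and B3GNT2 from −0.12 to 0.13. For clone 3, BCL11A ranged from −0.16 to 0.19, PEX13 from −0.050 to 0.019, CCT4 from −0.18 to 0.025 and B3GNT2 from −0.17 to 0.084. With library sizes alone PEX13 in clone 1 stood at −0.0027. The cause of these turns was not tested.

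Same-numbered replicates deviated together by a correlation of 0.01, 0.06 and −0.05 in Karpas-422 and of 0.10, 0.03 and 0.22 in the clones, so the numbers were not taken as pairs. With the replicate number as a block, 8 of the 10 genes were called in Karpas-422 and 0 in the clones, and 8251 genes in Karpas-422 in place of 8457. Without a filter, 20 genes were called in the clones. In Karpas-422 the split of calls was 4459 higher and 3998 lower, and 6454 and 2292 with library sizes alone. Depth limits COMMD1 most, with 9 to 18 reads per Karpas-422 library.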
